A study of Mus musculus with 4 samples.

Results

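The genes described here are 10 mouse genes of the bHLH-PAS family that lie outside the core clock: *Hif1a*, *Epas1*, *Hif3a*, *Arnt*, *Arnt2*, *Ahr*, *Ahrr*, *Sim1*, *Sim2* and *Npas3*. They were taken by symbol from a table of 37310 genes, and all 10 were found. The table holds mRNA-seq of mouse embryonic stem cells (mESCs) of the JM8 line, from strain C57BL6/N, in 2 wild-type (WT) libraries and 2 libraries whose label is *Bmal1*-/- (BKO). All 4 cultures grew without feeder cells in N2B27 medium with LIF, 1 µM of the Mek inhibitor PD0325901 and 3 µM of the Gsk3 inhibitor CHIR99021. The *Bmal1*-/- line on which the study centred is 1 clone made with CRISPR/Cas9, with a frame shift in both alleles, so that a difference of the clone cannot be told apart from one of the genotype. The labels number the libraries of each group by experiment and the study's methods call them biological replicates, so p-values measure the spread between these cultures.

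bHLH-PAS proteins bind DNA as pairs through a basic helix-loop-helix domain, and the PAS domains next to it help to choose the partner. Class I members, such as the Hif alpha subunits, Ahr, the Sim proteins and Npas3, respond to oxygen, ligands or tissue context, and they pair with the class II proteins Arnt or Arnt2. Bmal1, listed in the table as *Arntl*, is itself a class II bHLH-PAS protein, whose usual partner is Clock. In embryonic stem cells the Hif pathway is known for its link to glycolysis and low oxygen, and *Sim1*, *Sim2* and *Npas3* are known mainly from the nervous system.

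The 3 kinds of pair read related DNA words, so the stretches upstream of the RefSeq starts of 5 of these genes are shown (GRCm38.p6, 250 bases ending just before the start). Clock and Bmal1 bind the E-box CACGTG, Hif and Arnt bind ACGTG or GCGTG, and Ahr and Arnt bind GCGTG. Capitals mark every match to these 3 words on either strand. ACGTG lies inside CACGTG, so an E-box counts for both.
Hif1a, chr12:73907617-73907866, plus strand: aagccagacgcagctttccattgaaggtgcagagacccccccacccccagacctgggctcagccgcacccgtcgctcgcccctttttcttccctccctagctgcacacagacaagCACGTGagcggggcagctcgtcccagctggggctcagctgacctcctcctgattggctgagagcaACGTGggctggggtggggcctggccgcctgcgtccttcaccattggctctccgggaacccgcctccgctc
Hif3a, chr7:17062428-17062677, minus strand: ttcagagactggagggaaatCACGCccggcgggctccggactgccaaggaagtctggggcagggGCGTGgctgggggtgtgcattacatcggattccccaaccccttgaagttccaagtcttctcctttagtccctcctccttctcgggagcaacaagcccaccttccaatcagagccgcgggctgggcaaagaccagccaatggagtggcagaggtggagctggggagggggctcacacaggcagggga
Arnt, chr3:95434140-95434389, plus strand: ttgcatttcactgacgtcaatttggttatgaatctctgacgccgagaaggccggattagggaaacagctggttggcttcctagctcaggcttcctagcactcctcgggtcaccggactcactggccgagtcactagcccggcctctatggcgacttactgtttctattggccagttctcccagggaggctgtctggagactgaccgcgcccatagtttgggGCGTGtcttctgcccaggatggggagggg
Arnt2, chr7:84410039-84410288, minus strand: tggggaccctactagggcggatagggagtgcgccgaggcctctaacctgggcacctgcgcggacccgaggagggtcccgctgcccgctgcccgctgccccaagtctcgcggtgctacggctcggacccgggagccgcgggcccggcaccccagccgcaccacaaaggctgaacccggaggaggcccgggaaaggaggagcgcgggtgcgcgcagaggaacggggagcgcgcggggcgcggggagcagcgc
Ahrr, chr13:74292332-74292581, minus strand: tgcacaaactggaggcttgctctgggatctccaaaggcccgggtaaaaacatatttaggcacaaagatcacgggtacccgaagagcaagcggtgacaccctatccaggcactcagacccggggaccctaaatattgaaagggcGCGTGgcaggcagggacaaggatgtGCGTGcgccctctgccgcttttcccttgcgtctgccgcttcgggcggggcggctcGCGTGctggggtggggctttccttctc
Of the 7 members with a promoter in the table, *Hif1a* held an E-box, at position -135 from the start, and another ACGTG at position -70. Over 32851 promoter stretches of this length, 6.02% held CACGTG, 16.6% ACGTG and 28.2% GCGTG. These shares were not matched for GC content. Its median was 52.4% over the stretches, against 66.4% in *Hif1a*, 62.0% in *Hif3a*, 57.2% in *Arnt*, 60.4% in *Ahrr* and 45.6% in *Sim1*. *Arnt* had 1 GCGTG, *Hif3a* 2 and *Ahrr*, which is a known target of Ahr, 3. *Npas3* had 1 ACGTG, and *Arnt2* and *Sim1* had no match to these letters. *Epas1*, *Ahr* and *Sim2* are not in the promoter table. A match is a description of the letters and was not tested as a binding site.

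The deposited values are read counts scaled to the library by the trimmed mean of M values (TMM). The libraries held 21504265 to 23329034 reads on genes, and a floor of 3 reads corresponded to values of 2.82 to 3.19. The targeted gene *Arntl* had values of 678 and 733 in WT libraries and of 556 and 590 in BKO libraries. Reads of its mRNA were thus present under both labels, and a count per gene does not show whether they carry the frame shifts. In its *Bmal1*-/- cells the study reports no *Bmal1* mRNA detected by RT-qPCR and no detectable Bmal1 protein by Western blot. Those assays were not analysed here, and the difference from the mRNA-seq values was not tested. WT and BKO stand for the labels. All 7 naive pluripotency markers examined passed the filter on low values, with summed values of 106840 to 109574 in WT libraries and 115248 to 117440 in the others. The markers did not move together, since 3 were called higher and 4 lower in BKO libraries. Of 6 trophoblast markers 2 passed the filter, and both were called lower in BKO libraries. The summed values of the 6 were 329 to 336 in WT libraries and 177 to 205 in the others. *Tpbpa* and *Prl3d1* were at 0 reads in all libraries. Of 7 fibroblast markers 2 passed, and 1 was called higher. Their sums were 69.5 to 75.4 and 97.3 to 108, and *Dcn* and *Lum* were at 0 reads. Of 6 primitive endoderm markers 3 passed, of which 2 were called higher and 1 lower, with sums of 144 to 171 and of 169 to 175.

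Per kb of annotated exon, the scale on which genes can be compared, *Hif1a* had the highest level of the 10 genes. Its level in WT libraries was 414 ± 19.5 TMM-scaled reads per kb (SD, n = 2 libraries, as for all such values). *Epas1* followed with 325 ± 17.7 and *Arnt* with 248 ± 7.89. These 3 stood well above *Ahr* at 29.2 ± 5.14, *Arnt2* at 13.0 ± 1.45 and *Hif3a* at 7.09 ± 0.265. *Ahrr* had 1.59 ± 0.170, and *Sim2*, *Npas3* and *Sim1* had means of 0.536, 0.451 and 0.360 per kb. The WT libraries of neighbours in this order did not overlap, except among *Sim2*, *Npas3* and *Sim1*, which differed by less than their spread. In BKO libraries the order from *Hif1a* to *Arnt2* was the same, but *Ahr* at 26.3 ± 4.60 and *Arnt2* at 21.1 ± 2.35 per kb lay closer than the sum of their SDs. *Hif3a* at 4.38 ± 1.04 overlapped there with *Sim2* at 3.35 ± 1.32. Among all genes tested, the mean level per kb of *Hif1a* lay at percentile 76.4, that of *Arnt* at 67.2 and that of *Hif3a* at 5.68.

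**Figure D1:**
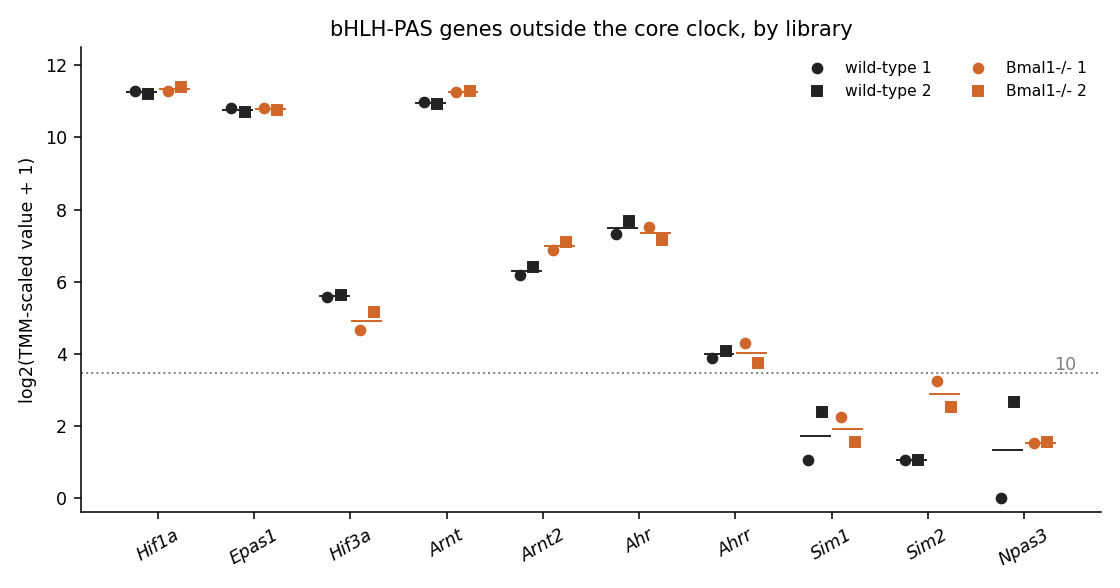
Expression of the 10 genes on a log2(TMM-scaled value + 1) axis, one symbol per library (black, WT; orange, BKO; circles, replicate 1; squares, replicate 2), with lines at group means of the plotted values. The dotted line marks the filter at a value of 10; Sim1, Sim2 and Npas3 lie under it, and the groups of Hif3a, Arnt and Arnt2 do not overlap.

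A filter kept genes whose values averaged 10 or more across the 4 libraries, and 7 of the 10 genes passed it. The test was limma, run on log2(value + 1) across all 14510 genes kept, and a gene was called with a Benjamini-Hochberg adjusted p under 0.05. Of the 7 genes tested, *Arnt* and *Arnt2* were higher and *Hif3a* lower in BKO libraries, and 4 were not called. Among all genes tested 52.6% were called in either direction, 24.0% higher and 28.6% lower. The shares of the 7 genes were 42.9%, 28.6% and 14.3%. With only 7 genes tested these lie near the background and are not read as a result about the set. When libraries were instead scaled to equal totals, the split over all genes tested was 4200 higher and 3194 lower, against 3488 and 4151. None of the 7 passed 2-fold, which 7.21% of all genes tested did. The median log2 fold change of the 7 genes was 0.05, and that of all genes tested was -0.03. Because 1 was added to each value, the fold changes of low genes come out too small. In bulk RNA, fewer cells that express a gene and less of its RNA per cell cannot be told apart.

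The class II partners are the members that were higher. *Arnt* (ENSMUSG00000015522, mm9 chromosome 3, 95238310 to 95301162) encodes the partner shared by the Hif alpha subunits and Ahr. Its values were 2031 and 1942 in WT libraries and 2450 and 2477 in BKO libraries. Both of the latter lay above both WT libraries, and the groups did not overlap. The log2 fold change was 0.31 (standard error 0.05, 95% interval 0.21 to 0.41, adjusted p = 1.3e-05), or 1.24-fold. The call held under every alternative run, with adjusted p-values from 5.5e-10 to 0.028. The median log2 fold change of the 651 genes tested on chromosome 3 was -0.01.

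*Arnt2* (ENSMUSG00000015709, mm9 chromosome 7, 91394791 to 91558469) encodes a paralog known mainly from neurons. Its values were 71.6 and 83.9 in WT libraries, and both BKO libraries were higher, at 116 and 136. These values rest on 68 to 143 reads per library, and the groups did not overlap. The log2 fold change was 0.69 (standard error 0.15, 95% interval 0.37 to 1.02, adjusted p = 8.0e-04), or 1.62-fold. No alternative gave an adjusted p above 0.037, and with 1 library left out the log2 fold change was 0.58 to 0.81. Of all genes tested, 90.0% had a log2 fold change no higher than that of *Arnt2*, against 77.9% for *Arnt*. Of 6 neural markers 4 passed the filter and 3 were lower, and their summed values were 3733 to 3983 in WT libraries and 2062 to 2184 in BKO libraries, with *Fabp7* at 0 reads. Their part in the *Arnt2* difference was not tested.

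A ratio taken within a library is little changed by a single scaling factor per library. Quantile normalization, which is not of that kind, moves it. With quantile normalization the log2 fold changes were 0.35 for *Arnt* and 0.52 for *Arnt2*. All ratios here were taken after adding 1 to each value. Per kb of exon, *Arnt* was 20.9 and 17.1 times *Arnt2* in the WT libraries and 15.6 and 13.5 times in BKO libraries. The groups did not overlap. The log2 ratio differed by -0.38 between labels, with an SD of 0.21 among WT and of 0.15 among the other libraries (exact permutation test, two-sided, p = 0.333, the smallest that 2 libraries against 2 can give). Without WT replicate 1 the difference was -0.24, and it was -0.53 without WT replicate 2. *Arnt* stayed the more abundant of the 2 genes in all 4 libraries.

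Of the 3 alpha subunits, only *Hif3a* was called. *Hif1a* (ENSMUSG00000021109, mm9 chromosome 12, 75002362 to 75048517) and *Epas1* (ENSMUSG00000024140, mm9 chromosome 17, 87153247 to 87232750) encode the oxygen-regulated subunits Hif-1 alpha and Hif-2 alpha, which are controlled largely through protein stability. *Hif1a* had values of 2523 and 2360 in WT libraries and of 2512 and 2680 in BKO libraries, and the groups overlapped. Its log2 fold change was 0.09 (95% interval -0.01 to 0.19, adjusted p = 0.14), so that a change above 1.14-fold lay outside the interval. The adjusted p passed the threshold with equal library totals (0.15 on the log2 scale, adjusted p = 0.014), with quantile normalization (0.13, adjusted p = 0.043) and without WT replicate 1 (0.14, adjusted p = 0.024). The log2 fold change was 0.04 without WT replicate 2 (adjusted p = 0.56) and without BKO replicate 2 (adjusted p = 0.63). A lincRNA on the opposite strand, *Gm15283*, shares 330 exon bases with *Hif1a*. Its own values were 4.25 to 8.45.

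*Epas1* had 1792 and 1659 in WT libraries against 1789 and 1742, and the groups overlapped here too. Its log2 fold change was 0.03 (95% interval -0.07 to 0.14, adjusted p = 0.61). *Epas1* is known from endothelial cells, and 5 endothelial markers were examined, with *Emcn* at 0 reads and 2 above the filter. Their summed values were 435 to 483 in WT libraries and 469 to 478 in the others. Neither of the 2 was called. The *Hif1a* to *Epas1* ratio per kb was 1.27 and 1.28 in WT libraries and 1.26 and 1.38 in the others. The log2 ratios differed by 0.05 (exact permutation test, two-sided, p = 1), with a difference of -0.01 without BKO replicate 2 and of 0.12 without BKO replicate 1.

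*Hif3a* (ENSMUSG00000004328, mm9 chromosome 7, 17616856 to 17647776) encodes the third alpha subunit, some of whose splice forms, such as IPAS, inhibit the other subunits. The table gives 1 value per gene, so the splice forms are not told apart. *Hif3a* had values of 46.4 and 48.9 in WT libraries and of 24.4 and 34.3 in BKO libraries, from 26 to 46 reads per library. Both of the latter lay below both WT libraries. The log2 fold change was -0.70 (standard error 0.24, 95% interval -1.20 to -0.19, adjusted p = 0.02), or 0.617-fold. This call rested on few reads and on single libraries. It was lost in DESeq2 (-0.67, adjusted p = 0.21), without the intensity trend of limma (adjusted p = 0.059), with no filter on low values (adjusted p = 0.097), without BKO replicate 1 (-0.46, adjusted p = 0.21) and without WT replicate 2 (-0.66, adjusted p = 0.051), while edgeR kept it (adjusted p = 0.022). *Hif3a* and *Arnt2* lie on the same chromosome and moved in opposite directions, and the median over the 1189 genes tested there was -0.06.

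**Figure D2:**
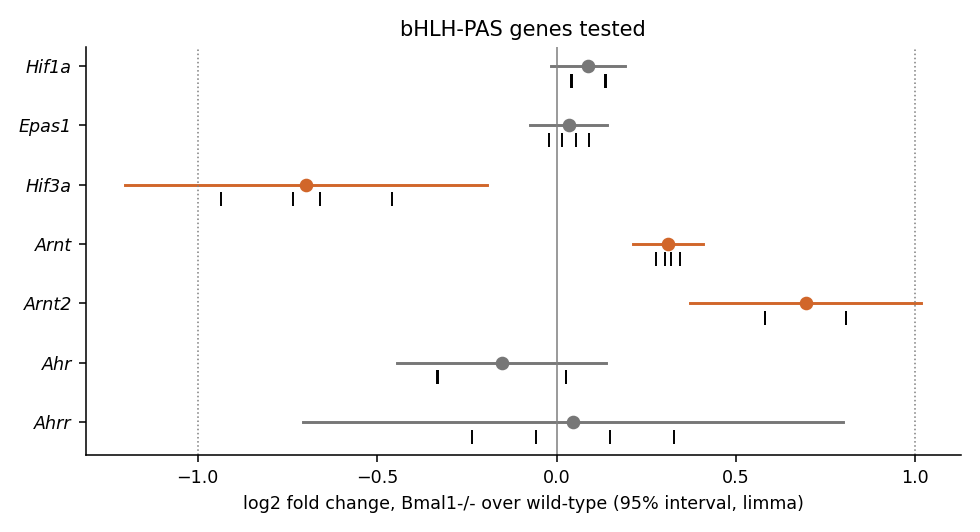
Log2 fold change of the 7 tested genes, BKO libraries over WT, with 95% limma intervals (orange, adjusted p under 0.05; grey, not called), and black ticks for the value with each library left out in turn. Arnt and Arnt2 lie at 0.31 and 0.69, Hif3a at -0.70, and the dotted lines at 2-fold are passed by no point.

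**Figure D3:**
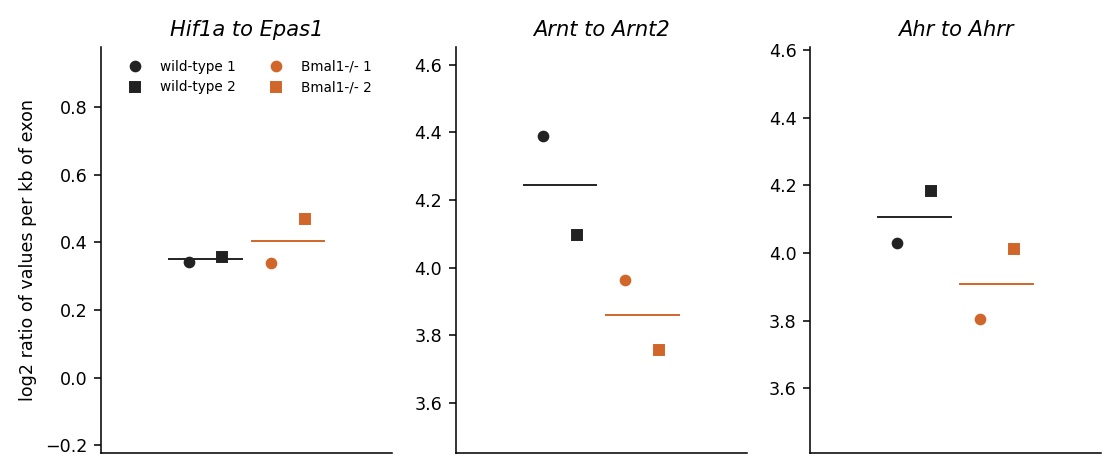
Log2 ratio of 2 members within each library, per kb of exon, for Hif1a to Epas1, Arnt to Arnt2 and Ahr to Ahrr (symbols as for the values by library; lines, group means; each axis spans the same range of log2 units and does not start at 0). From the TMM-scaled values, the Arnt to Arnt2 and Ahr to Ahrr ratios are lower in both BKO libraries.

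*Ahr* (ENSMUSG00000019256, mm9 chromosome 12, 36182646 to 36219710) encodes the aryl hydrocarbon receptor, a ligand-activated factor that moves to the nucleus and pairs with Arnt. Its values were 158 and 203 in WT libraries and 182 and 142 in BKO libraries. The libraries of the groups interleaved. The log2 fold change was -0.15 (95% interval -0.44 to 0.14, adjusted p = 0.37). It turned to 0.03 without WT replicate 2 or without BKO replicate 2, and it was -0.33 (adjusted p = 0.034) without WT replicate 1.

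*Ahrr* (ENSMUSG00000021575, mm9 chromosome 13, 74348566 to 74429779) encodes a repressor that competes with Ahr for Arnt. It had 13.7 and 15.9 in WT libraries and 18.8 and 12.4 in the others, from 13 to 20 reads per library, and its groups overlapped. Its log2 fold change was 0.05 (95% interval -0.71 to 0.80, adjusted p = 0.93), which allows changes of up to 1.74-fold, and it turned to -0.28 with quantile normalization. Per kb, with 1 added to each value, *Ahr* was 16.3 and 18.2 times *Ahrr* in WT libraries and 14.0 and 16.1 times in the others. The nearest libraries of the groups, at 16.3 and 16.1, hardly differed. At so few *Ahrr* reads the added 1 makes each ratio smaller. With quantile normalization the log2 fold changes of *Ahr* and *Ahrr* were nearly equal, at -0.26 and -0.28, so the lower ratio was not kept. The log2 ratios differed by -0.20 (exact permutation test, two-sided, p = 0.333, the smallest possible), with -0.10 without BKO replicate 1 and -0.30 without BKO replicate 2.

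The 3 members known from the nervous system were under the filter. *Sim1* (ENSMUSG00000019913, mm9 chromosome 10, 50615457 to 50708958) encodes a factor of hypothalamic neurons and had 1 and 4 reads in WT libraries and 4 and 2 in BKO libraries. *Npas3* (ENSMUSG00000021010, mm9 chromosome 12, 54349664 to 55173162) encodes a brain factor and had 0 and 5 reads against 2 and 2. At these counts no difference was detectable for either gene. The pooled ratio of values was 1.07 for *Sim1* (exact 95% interval 0.273 to 4.45) and 0.716 for *Npas3* (0.142 to 3.33), where the intervals cover counting error only. *Sim2* (ENSMUSG00000062713, mm9 chromosome 16, 94086061 to 94347498), a paralog of *Sim1*, had 1 read in each WT library and 9 and 5 reads in BKO libraries, so that its groups did not overlap. The pooled ratio was 6.26 (exact 95% interval 1.44 to 56.8, counting error only). With no filter on low values its log2 fold change in limma was 1.84 (adjusted p = 0.04), and with a mean of at least 1 the adjusted p was 0.026.

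A list of 15 regulators of Hif protein was examined next, since the alpha subunits are controlled after translation. All 15 were tested, of which 6 were higher, 4 lower and 5 not called, and none passed 2-fold. Called genes made up 66.7% of the list, against 52.6% of all genes tested. All 15 had a mean of at least 100, and genes at that level are called more often. Of 10486 such genes 6401 were called, 2540 higher and 3861 lower. The median log2 fold change was 0.03. The prolyl hydroxylases, which mark Hif alpha for degradation, moved in different directions. *Egln1* (Phd2) rose from 722 and 712 to 844 and 866 (0.25 on the log2 scale, adjusted p = 0.0016). *Egln2* fell from 1606 and 1469 to 1266 and 1128 (-0.36, adjusted p = 4.9e-05). *Egln3*, itself induced by Hif, had 166 and 138 against 110 and 116 (-0.42, adjusted p = 0.013), a call lost in DESeq2 (adjusted p = 0.16), without WT replicate 1 (-0.29, adjusted p = 0.13) and without BKO replicate 1 (adjusted p = 0.09).

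*Vhl*, the subunit that recognises hydroxylated Hif alpha, rose from 974 and 1071 to 1159 and 1223 (0.22, adjusted p = 0.004, but 0.074 without BKO replicate 2). *Rbx1*, the RING subunit of the same ubiquitin ligase, fell by 0.34 on the log2 scale (adjusted p = 3.4e-06). *Hif1an*, the asparagine hydroxylase that blocks coactivator binding, had a log2 fold change of -0.06 (adjusted p = 0.38), with -0.16 (adjusted p = 0.013) without WT replicate 2 and 0.04 without WT replicate 1. The coactivators rose: *Crebbp* by 0.50 (adjusted p = 1.1e-05) and *Ep300* by 0.37 on the log2 scale (adjusted p = 1.7e-05). *Cited2*, which competes with Hif alpha for these coactivators, rose from 553 and 593 to 1016 and 1079 (0.87, adjusted p = 7.1e-10), the highest log2 fold change of the list. The WT libraries differed at *Crebbp*, with 988 and 804, and at *Ep300*, with 2903 and 2471, and both BKO libraries lay above them. Without the trend, the calls of *Egln2*, *Egln3*, *Vhl*, *Ep300* and *Crebbp* were lost, with adjusted p-values from 0.053 to 0.095.

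**Figure D4:**
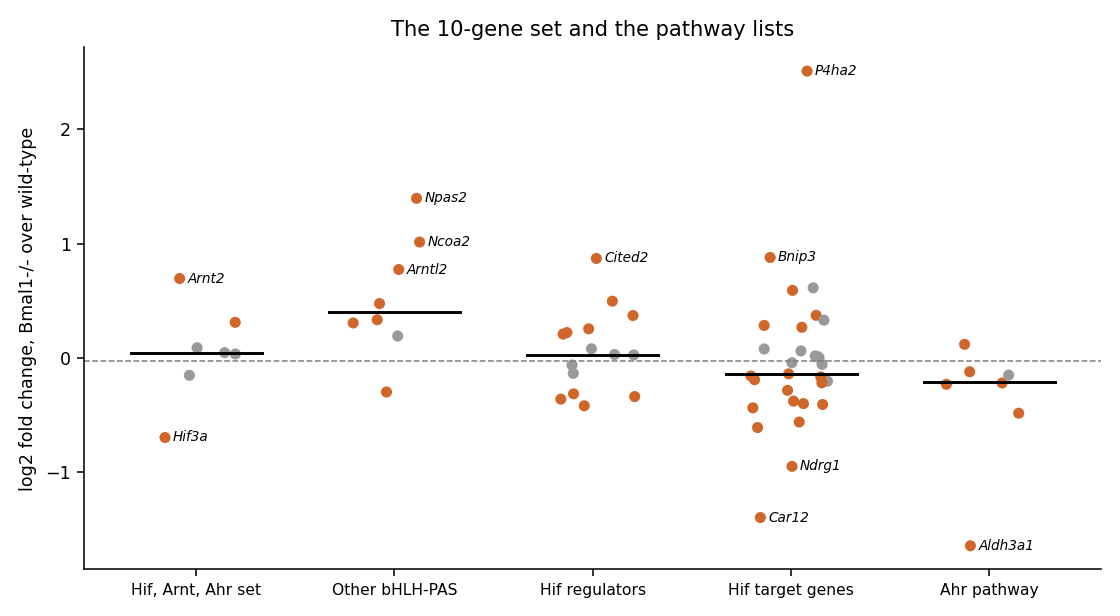
Log2 fold change of the tested genes in the 10-gene set and in 4 related lists, with 2 genes not shown, BKO libraries over WT (orange, adjusted p under 0.05; grey, not called; black line, median over all tested genes of the list; dashed line, median of all genes tested, -0.03). Genes shown beyond 0.65 in either direction are named; P4ha2 at 2.51 is the farthest from 0.

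Of 33 genes known as targets of Hif and Arnt, 31 passed the filter, and *Adm* and *Epo* did not. In this list 15 genes were lower, 6 higher and 10 not called, so that 48.4% were lower against 28.6% of all genes tested. Among genes with a mean of at least 100 the background is larger, with 3861 of 10486 lower. At that filter 14 genes of the list were lower, and *Ankrd37*, *Car9*, *Car12* and *Edn1* were not tested. The median log2 fold change was -0.14. *Slc2a1*, the glucose transporter Glut1, fell from 4207 and 4003 to 2762 and 2616 (-0.61 on the log2 scale, adjusted p = 7.3e-10). *Pdk1*, a kinase that inhibits pyruvate dehydrogenase, fell from 549 and 597 to 393 and 382 (-0.56, adjusted p = 3.6e-06). *Ldha*, lactate dehydrogenase A, fell by 0.22 on the log2 scale (adjusted p = 1.1e-04, but 0.064 without the trend). Of the other genes of glucose use in the list, named after their values were seen, *Pgk1*, *Eno1*, *Tpi1*, *Gapdh* and *Aldoa* lay between -0.44 and -0.16, and each was called. *Hk2* at 0.02 (adjusted p = 0.77), *Pfkfb3* at 0.06 (adjusted p = 0.72) and *Pfkfb4* at -0.20 (adjusted p = 0.19) were not called, and the glucose transporter gene *Slc2a3* was called higher, at 0.27 (adjusted p = 3.5e-06). *Gapdh*, *Eno1* and *Ldha* have near-identical processed copies that can share their reads, so that single values are uncertain.

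Large falls in the list included those of *Car12* and *Ndrg1*. *Car12*, a carbonic anhydrase, had 29.5 and 28.7 in WT libraries and 6.58 and 16.2 in the others (-1.40 on the log2 scale, adjusted p = 0.0037). These values rest on 7 to 28 reads per library. The call of *Car12* was lost in DESeq2 (adjusted p = 0.068), and over the alternatives with all libraries the adjusted p reached 0.1. Without BKO replicate 1 its log2 fold change was -0.81. *Ndrg1*, a stress-induced gene, fell from 427 and 382 to 212 and 205 (-0.95, adjusted p = 5.1e-08).

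Other targets moved the opposite way. *P4ha2*, a collagen prolyl hydroxylase, rose 5.69-fold, from 102 and 112 to 631 and 594. On the log2 scale this was 2.51 (standard error 0.10, adjusted p = 2.7e-14), and its paralog *P4ha1* had 0.00 (adjusted p = 0.98). *Bnip3*, a mitophagy receptor, rose from 271 and 296 to 494 and 550 (0.88, adjusted p = 4.7e-08). *Vegfa*, the vascular growth factor, rose from 1106 and 1095 to 1693 and 1623 (0.59, adjusted p = 1.1e-08). The groups did not overlap for any of these 3 genes.

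**Figure D5:**
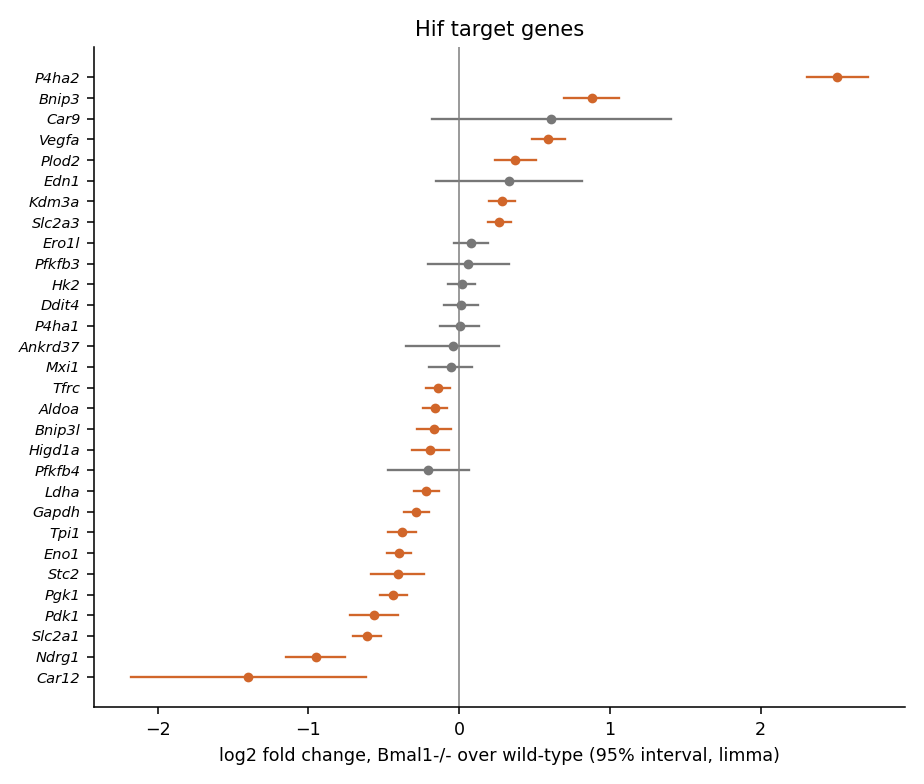
Log2 fold change of the tested Hif target genes, with 1 gene not shown, BKO libraries over WT, sorted by value, with 95% limma intervals (orange, adjusted p under 0.05; grey, not called). The lower genes reach -1.40 (Car12) and the 6 higher genes 2.51 (P4ha2).

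Of 11 genes of the Ahr pathway, 8 were tested. Among them 6 were lower, 1 higher and 1 not called, with a median log2 fold change of -0.22 against -0.03 over all genes tested. Called genes thus made up 87.5% of those tested in the list, against 52.6% of all genes tested. With a mean of at least 100, where *Cyp1a1* and *Aldh3a1* were not tested, 5 of the list were lower and 1 higher, against 3861 and 2540 of 10486 genes. *Nqo1*, a quinone reductase induced by Ahr and by Nfe2l2, fell from 2714 and 2737 to 1907 and 1989 (-0.48 on the log2 scale, adjusted p = 3.3e-08). *Nfe2l2*, which encodes the oxidative stress factor Nrf2, had 3266 and 3272 against 3472 and 3626 (0.12, adjusted p = 0.027), a call lost without BKO replicate 2 (0.09, adjusted p = 0.24). *Aldh3a1*, an aldehyde dehydrogenase of the same battery of genes, fell from 42.1 and 29.7 to 8.45 and 13.4 (-1.64, adjusted p = 3.1e-04) and was the only gene of the list past 2-fold.

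*Cyp1a1*, the classical Ahr target, had 17.9 and 17.0 in WT libraries and 16.0 and 15.3 in the others (-0.15, adjusted p = 0.73). Each *Cyp1a1* value rests on few reads, and its 95% interval was -0.85 to 0.54. *Cyp1b1*, a related target, had no value above 2.82 in any library and was not tested. *Tiparp*, which limits Ahr signalling, had 907 and 979 against 774 and 846 (-0.22, adjusted p = 0.0071), a call lost in DESeq2 (adjusted p = 0.11) and without BKO replicate 1 (-0.16, adjusted p = 0.13). *Ptges3* (p23), a cochaperone that holds Ahr in the cytoplasm, fell by 0.23 on the log2 scale (adjusted p = 2.5e-04), with a log2 fold change of -0.15 without BKO replicate 1. The calls of *Ptges3*, *Tiparp* and *Nfe2l2* were lost without the trend (adjusted p = 0.095, 0.11 and 0.16) and with no filter on low values (adjusted p = 0.071, 0.094 and 0.078).

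The set was last compared with the other bHLH-PAS genes, of which 8 of 9 were tested. Among these 6 were higher, 1 lower and 1 not called, with a median log2 fold change of 0.40, against 0.05 for the 7 tested members of the 10-gene set and -0.03 for all genes. Called genes were 87.5% of these, against 52.6% of all genes tested. *Clock*, the class I partner of Bmal1, rose from 1205 and 1112 to 1431 and 1430 (0.30 on the log2 scale, adjusted p = 1.0e-04), a log2 fold change close to that of *Arnt*. *Npas2*, its paralog, rose from 25.3 and 17.0 to 59.2 and 53.4, or by 1.40 on the log2 scale (adjusted p = 1.1e-04). *Arntl2*, the paralog of *Arntl*, had 24.2 and 23.4 against 33.8 and 50.5 (0.77, adjusted p = 0.018). Its call was lost in DESeq2 (adjusted p = 0.13), with quantile normalization (0.51, adjusted p = 0.11) and without the trend (adjusted p = 0.066). It was also lost with no filter on low values (adjusted p = 0.1) and with a mean of at least 1 (adjusted p = 0.06). Without BKO replicate 2 the log2 fold change of *Arntl2* was 0.49. Besides the targeted gene, the class II genes *Arnt*, *Arnt2* and *Arntl2* had positive log2 fold changes in these libraries, and *Arntl* itself had -0.30 (adjusted p = 0.0011). Positive values were not particular to class II, since the class I genes *Clock* and *Npas2* had them too. *Sim2*, under the filter, had 1.84 when the filter was relaxed, while *Hif3a* had -0.70.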

How the data were processed

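Total RNA was sequenced as stranded mRNA libraries. The authors aligned the reads to mm9 with STAR 2.5.2b, after bcl2fastq 2.18.0.12 and cutadapt 1.9.1 (per the labels), and deposited a signal per gene, the read count divided by a TMM factor of the library; the counting tool is not given in the sources used here. Values were whole multiples of 1 number per library (tolerance 0.01 of a read), so whole reads were recovered for 100% of values.

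Tests used limma 3.58.1 in R 4.3.3 (intensity trend, pseudocount 1, mean of 10 or more across the 4 libraries), 2 libraries against 2, with no covariate, and Benjamini-Hochberg adjustment over all 14510 genes tested. Normalized values are not counts, so edgeR 4.0.16 (7682 genes called at an adjusted p under 0.05, against 7639 in limma) and DESeq2 1.42.0 (5226 genes, the tool of the study) were alternatives, on recovered reads. Other alternatives changed the filter, pseudocount, scaling, trend, replicate block or libraries used. Scripts were tested on simulated data.

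Exon length is the union of GENCODE vM1 exons (NCBIM37, the build of mm9). Promoters are from RefSeq (GRCm38.p6), and 7 of the 10 genes matched. Gene lists came from general knowledge, and members and lists were chosen with earlier results of these data known. Genes named are the members, fixed genes of each list, and the 3 highest and 3 lowest called genes of each list whose groups do not overlap. Marker genes matched by an older symbol numbered 2. Values and figures used Python 3.11.15, scipy 1.17.1 and matplotlib 3.10.9. No batch is labelled. Other assays of the study were not analysed here. Values of 2 list genes are not reported here, though the list counts and medians include them.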

Additional observations from a re-analysis of the deposited data

How the results depend on the processing

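The calls of *Arnt* and *Arnt2* kept their direction and their side of the threshold in every alternative run. The depth limits *Hif3a*, *Ahrr*, *Sim1*, *Sim2* and *Npas3*, with at most 46 reads in any library. Of the 10 genes, 1 (*Hif3a*) was lower in the main analysis, and 0 were with no filter, a minimum mean of 1, no trend, or DESeq2. The count was also 0 with a minimum mean of 100, where *Hif3a* was not tested. With 1 library left out the log2 fold change of *Hif3a* was -0.93 to -0.46. With no filter or a mean of at least 1, 1 gene (*Sim2*) passed 2-fold. Among Hif regulators, 3 were higher with no filter, and 2 were higher and 2 lower without the trend. Among Hif targets 9 were lower without the trend. In the Ahr list 0 were higher with no filter, a mean of at least 1 or no trend, and 3 were lower without the trend. With 1 library left out the log2 fold change of *Nfe2l2* was 0.087 to 0.15. In this list 0 passed 2-fold with a mean of at least 100, where *Aldh3a1* was not tested. With 1 library left out, the difference of the *Hif1a* to *Epas1* log2 ratio was -0.011 to 0.12, and the log2 fold changes were -0.022 to 0.089 for *Epas1*, -0.33 to 0.026 for *Ahr*, -0.24 to 0.33 for *Ahrr* and -0.16 to 0.036 for *Hif1an*. The value for *Ahrr* was -0.28 with quantile normalization. Over all genes, equal library totals gave 4200 higher and 3194 lower against 3488 and 4151, omitting the trend gave 5060 calls against 7639, and 318 genes against 1046 passed 2-fold with a mean of at least 100. Replicates share only a number in the labels: with the replicate number as a block 7949 genes were called, 2 members were higher and 1 lower, the counts of the Hif regulator, Hif target and Ahr lists were as without it, and the differences between replicates correlated at -0.02 between labels.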

Other observations

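The p160 coactivator genes *Ncoa1*, *Ncoa2* and *Ncoa3* also encode bHLH-PAS proteins, which serve nuclear receptors and can bind Ahr and Arnt. *Ncoa2* rose from 1307 and 1235 in WT libraries to 2581 and 2552 in BKO libraries, by 1.01 on the log2 scale (adjusted p = 9.1e-13 in limma), just past 2-fold. *Ncoa1*, named after its values were seen, rose from 402 and 407 to 552 and 573, by 0.47 (adjusted p = 1.8e-05). *Ncoa3*, likewise, rose from 5175 and 4690 to 6211 and 6204, by 0.33 (adjusted p = 3.5e-06). The groups did not overlap for any of the 3 genes.

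By the Euclidean distance between log2 profiles centred on each gene's mean over the 4 libraries, the genes most like *Arnt* were *Myo9a* (0.00832), *Gtf2ird1* (0.0171) and *Dopey1* (0.0217). With 4 libraries in 2 groups such a profile holds little more than the difference between labels.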
